A study of Mus musculus with 13 samples.

Results

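The 40 genes described here mark blood vessel endothelium or carry signals for angiogenesis, and they were taken by symbol from a list out of the 40787 genes of the table. All 40 were found, and each was matched to 1 Ensembl gene ID. Transcripts were counted by RNA sequencing in 13 sciatic nerves of C57BL/6 mice, with 1 library per nerve. Controls carried floxed Rptor alleles (Rptor flox/flox) and no Cre, and RaptorKOs carried the same alleles with a tamoxifen-inducible Cre that is active in Schwann cells (SCs). Mice of both genotypes received tamoxifen at 2 months of age. The sciatic nerve of one side was crushed 2 months later, and the injured nerve distal to the crush and the contralateral nerve were taken at 5 dpc (days post-crush). There were 3 control and 3 RaptorKO injured nerves, and 3 control and 4 RaptorKO contralateral nerves. Libraries of one group came from separate mice. The labels do not state whether an injured and a contralateral nerve of the same number came from one mouse.

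Endothelial cells line every vessel of the nerve and, in the endoneurium, form the blood-nerve barrier through tight junctions. Their growth is steered by VEGF ligands acting on the receptors Kdr, Flt1, and Flt4, by the angiopoietins acting on Tek with its partner Tie1, by apelin and its receptor, and by Notch ligands such as Dll4. Crush of a nerve opens the barrier and starts Wallerian degeneration distally, and vessels of the degenerating stump are remodelled while macrophages enter and SCs dedifferentiate. RNA came from whole nerves after removal of the epineurium, so each value mixes endothelium with all other cells of the nerve, and more endothelial cells cannot be told apart from more RNA per cell.

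Library totals ranged from 8200458 to 13581775 counts, and the members held 0.111% to 0.282% of them. Levels are given as CPM, counts relative to library size, after TMM scaling of the libraries; members below a few CPM rest on few counts. Rptor, the deleted gene, lay at 35.0 to 48.6 CPM in control injured and 23.2 to 28.6 CPM in RaptorKO injured nerves, and at 43.7 to 52.5 CPM in control contralateral and 22.1 to 28.02 CPM in RaptorKO contralateral nerves, without overlap on either side. Both libraries labelled control 3 held 14462 and 15017 Xist counts, whereas the other libraries held 4 to 17, so sex was not balanced between the genotypes. A few libraries stood apart. RaptorKO injured 2 had the highest summed level of the members (2603 CPM, against 1902 and 1908 in the other RaptorKO injured nerves) and the lowest macrophage marker sum of the injured nerves (1565 CPM, against 2478 to 3293). RaptorKO contralateral 3 had 133 CPM of the adipocyte markers Adipoq, Plin1, Cidec, and Lep, whereas the other contralateral nerves had 0 to 27.3 CPM. The 13 endothelial markers used to check the label, 9 of them members, were above 0 in every library.

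Promoter sequence is shown for Klf4, Klf2, Kdr, and Tek, which have a RefSeq promoter entry and were called as differing in their response to injury between the genotypes. Emcn was added because, among members called between the genotypes, its window held the most matches to the motifs searched. Ly6c1 also has RefSeq entries and was called as differing in its response. Its 2 windows, 1 of which held 2 AGGAAG, are not shown. RefSeq entries were found for 20 of the 40 members, with 26 windows because some genes have several starts. Each window is the 220 bases that end 30 bases before the RefSeq start (build GRCm38.p6), printed 5′ to 3′ on the strand of the gene. Capitals mark matches, on either strand, to AGGAAG (core of ETS factor sites, the family of Erg and Fli1), CCACCC (core of KLF sites), or AACAAT (core of SOX sites). Positions are chr4:55532506-55532725 (minus strand) for Klf4, chr8:72318812-72319031 (plus) for Klf2, chr5:75978486-75978705 (minus) for Kdr, chr4:94739039-94739258 (plus) for Tek, and chr3:137340828-137341047 (plus) for Emcn.
Klf4: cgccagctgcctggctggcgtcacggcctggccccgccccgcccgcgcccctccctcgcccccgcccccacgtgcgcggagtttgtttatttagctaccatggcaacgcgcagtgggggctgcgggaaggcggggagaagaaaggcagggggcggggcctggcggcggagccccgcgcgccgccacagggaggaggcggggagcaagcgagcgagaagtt
Klf2: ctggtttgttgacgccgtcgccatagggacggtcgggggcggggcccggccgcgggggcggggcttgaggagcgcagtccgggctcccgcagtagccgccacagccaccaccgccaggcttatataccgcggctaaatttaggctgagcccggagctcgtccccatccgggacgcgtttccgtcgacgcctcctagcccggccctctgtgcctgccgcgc
Kdr: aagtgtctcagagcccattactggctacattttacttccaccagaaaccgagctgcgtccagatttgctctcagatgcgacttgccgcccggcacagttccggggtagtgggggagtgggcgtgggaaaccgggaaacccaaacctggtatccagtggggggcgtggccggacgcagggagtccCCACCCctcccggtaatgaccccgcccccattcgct
Tek: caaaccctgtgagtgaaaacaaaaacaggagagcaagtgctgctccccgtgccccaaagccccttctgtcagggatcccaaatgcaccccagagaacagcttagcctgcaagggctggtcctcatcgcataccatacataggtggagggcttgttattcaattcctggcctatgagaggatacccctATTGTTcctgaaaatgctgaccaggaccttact
Emcn: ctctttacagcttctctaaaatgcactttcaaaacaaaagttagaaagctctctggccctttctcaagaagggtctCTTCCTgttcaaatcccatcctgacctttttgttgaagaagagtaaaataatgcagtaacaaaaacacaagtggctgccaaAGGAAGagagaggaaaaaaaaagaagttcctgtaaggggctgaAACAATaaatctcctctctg
The windows of Klf4 and Klf2 held none of these letters, that of Kdr held 1 CCACCC, that of Tek held 1 AACAAT, and that of Emcn held 2 AGGAAG and 1 AACAAT. Over the 26 member windows, 11 (42.3%) held AGGAAG, 7 (26.9%) CCACCC, and 3 (11.5%) AACAAT, against 26.1%, 25%, and 8.65% of all 32851 RefSeq windows of the same length. A match is a run of letters and was not measured as a binding site.

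Between the genotypes, the members stood higher in RaptorKO than in control nerves after injury and differed little without it. In injured nerves 34 of the 40 members passed the count filter (at least 50 counts in 2 or more of the libraries compared) and were tested with edgeR. A member was called when its adjusted p was below 0.05 and its fold change above 1.2. By this rule 20 were higher in RaptorKO injured nerves and 0 were lower, whereas 4.09% of all 12040 genes tested were called higher and 4.44% lower. Of the 14 members tested but not called, 12 had a log2 fold change above 0, and 25 of the 34 had an unadjusted p below 0.05. Over all genes tested, 50.2% had a log2 fold change above 0, and the share with an unadjusted p below 0.05 is not given here. The median log2 fold change of the members was 0.75, against 0.00 over all genes tested. In contralateral nerves 36 members were tested, of which Cd34 was higher and Vegfc and Tspan18 were lower in RaptorKOs. There the background was 4.49% of 11878 genes higher and 5.68% lower, and the median was 0.01 for the members and for all genes alike. The lower calls fell to 0 without control contralateral 1, control contralateral 2, or RaptorKO contralateral 1 and to 1 without control contralateral 3 or RaptorKO contralateral 4, and the Cd34 call remained in each case. For each of the 20 members called in injured nerves, all 3 RaptorKO values lay above all 3 control values. This separation rests on the same values as the calls and adds no support to them. The share of all genes that separated in this way is not given here. RaptorKO injured 2 was the highest of the 6 injured libraries for 15 of the 20 called members, and control injured 1 was the lowest for 14. The number of members called in injured nerves rested on single libraries: it was 5 without control injured 1, 4 without control injured 2, 13 without RaptorKO injured 1 or without RaptorKO injured 2, 18 without control injured 3, and 19 without RaptorKO injured 3. Klf4, Ptprb, Vwf, and Ly6c1 were called whichever of these libraries was left out.

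**Figure D1:**
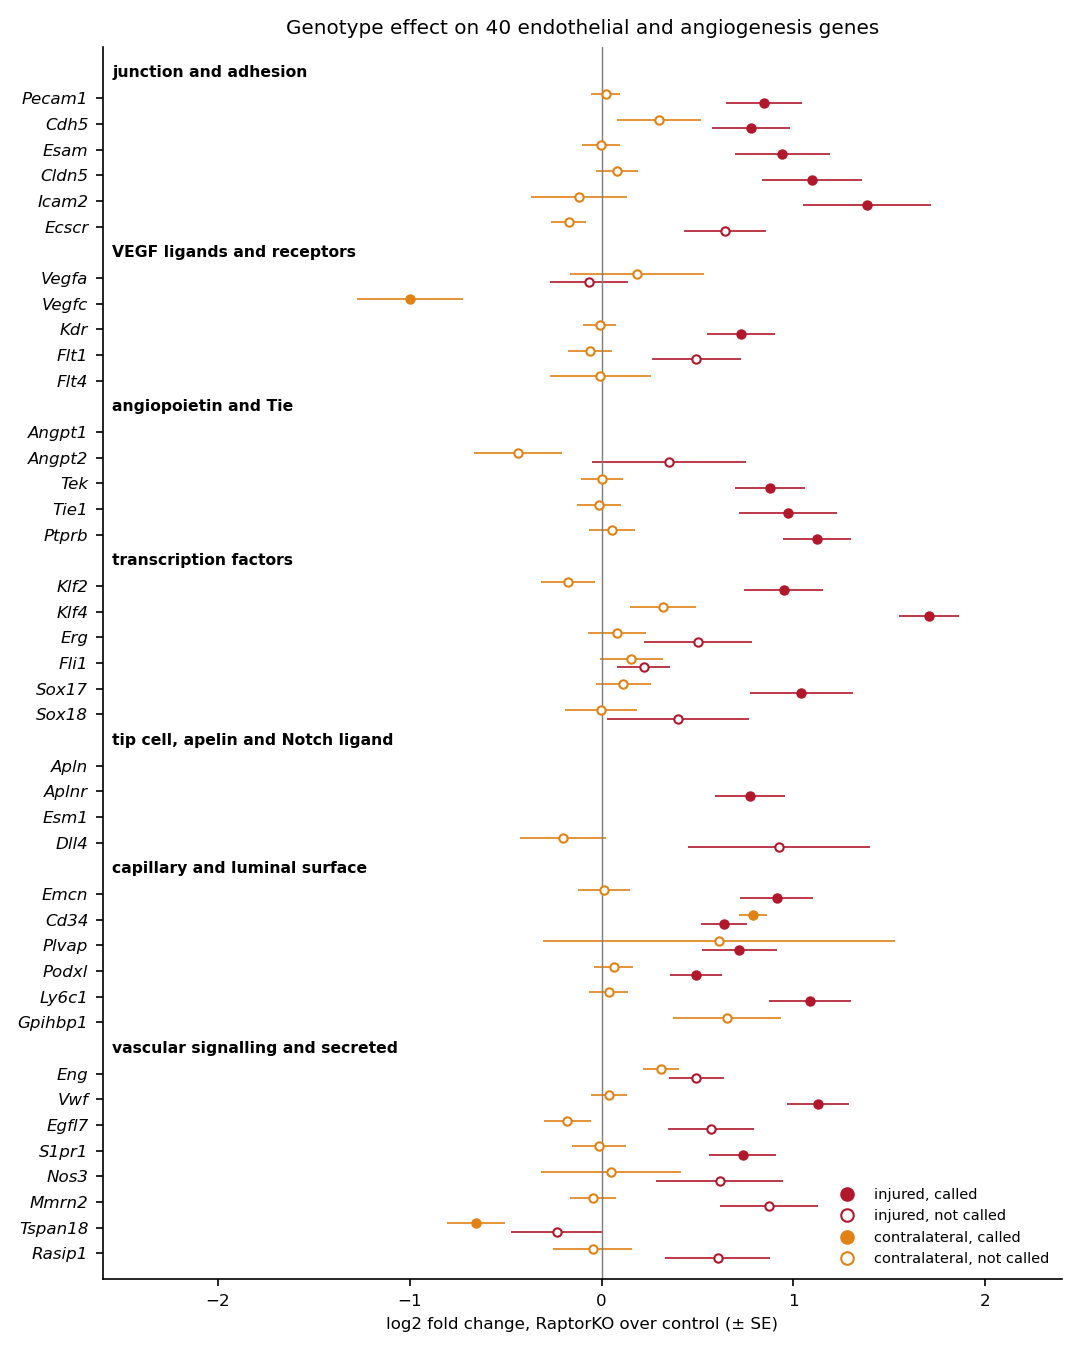
Log2 fold change of RaptorKO over control (x axis, with SE) for each member (y axis, grouped by role) in injured (red) and contralateral (orange) nerves; filled points were called and members without a point were not tested. The 20 filled red points lie to the right of 0, between 0.49 for Podxl and 1.71 for Klf4, while most orange points lie near 0.

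Genes of endothelial junctions and adhesion. Of these 6 genes, 5 were called higher in RaptorKO injured nerves and none was called in contralateral nerves. Pecam1, the adhesion molecule CD31 that marks endothelium and is also carried by platelets and some leukocytes, was at 83.8, 101 and 130.5 CPM in control injured nerves and 155, 244 and 161 CPM in RaptorKO injured nerves (log2 fold change 0.85 ± 0.20 (SE), edgeR adjusted p = 0.0238). Contralateral Pecam1 was at 115, 104 and 114 CPM in control nerves, against 112, 107, 118 and 106 CPM in RaptorKO nerves and overlapped between the genotypes. Cdh5, the VE-cadherin of adherens junctions, stood at 55.8, 77.3 and 92.0 CPM in control injured nerves and 97.2, 160.1 and 125 CPM in RaptorKO injured nerves (log2 fold change 0.78 ± 0.20 (SE), edgeR adjusted p = 0.0372). In contralateral nerves Cdh5 was at 114, 93.3 and 115 CPM in control nerves, against 142, 94.3, 191 and 94.5 CPM in RaptorKO nerves, and its highest value came from RaptorKO contralateral 3, the library with the adipocyte markers. Esam, an adhesion molecule of endothelial tight junctions, was at 19.8, 30.1 and 34.3 CPM in control injured nerves and 44.1, 74.0 and 41.4 CPM in RaptorKO injured nerves (log2 fold change 0.94, edgeR adjusted p = 0.0379). RaptorKO injured 2 was well above the other RaptorKO values for Pecam1, Cdh5, and Esam. Contralateral Esam kept to a narrow band, at 33.8, 32.5 and 36.6 CPM in control nerves, against 33.6, 34.3, 35.7 and 31.4 CPM in RaptorKO nerves. Cldn5, the claudin that seals endothelial tight junctions, was at 21.3, 27.9 and 28.9 CPM in control injured nerves and 44.1, 82.5 and 38.0 CPM in RaptorKO injured nerves (log2 fold change 1.10, edgeR adjusted p = 0.0253). Here too RaptorKO injured 2 held the highest value. Contralateral levels of Cldn5 were higher than any injured control value, at 83.8, 82.7 and 75.2 CPM in control nerves, against 73.9, 91.2, 76.0 and 94.7 CPM in RaptorKO nerves, with no separation of the genotypes. Icam2, a ligand for leukocyte integrins held at endothelial contacts, was at 2.10, 4.04 and 3.92 CPM in control injured nerves and 6.49, 10.8 and 8.69 CPM in RaptorKO injured nerves (log2 fold change 1.38, edgeR adjusted p = 0.0255), which was the second highest fold change of the list on few counts. Contralateral Icam2 was at 5.19, 6.28 and 7.22 CPM in control nerves, against 5.87, 6.72, 5.81 and 4.12 CPM in RaptorKO nerves. Ecscr, an endothelial membrane protein that modulates chemotaxis and survival, was at 21.7, 17.6 and 22.9 CPM in control injured nerves and 21.9, 40.003 and 34.3 CPM in RaptorKO injured nerves, with control and RaptorKO values overlapping (log2 fold change 0.65, edgeR adjusted p = 0.0944, not called). Contralateral Ecscr was far higher, at 147, 165 and 141 CPM in control nerves, against 129, 149.7, 124 and 125 CPM in RaptorKO nerves.

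VEGF ligands and receptors. Among these 5 genes, Kdr was called higher in RaptorKO injured nerves and Vegfc lower in RaptorKO contralateral nerves, while the ligand Vegfa was called in neither. Vegfa, the main angiogenic ligand, was at 10.96, 12.2 and 10.8 CPM in control injured nerves and 8.71, 12.3 and 10.97 CPM in RaptorKO injured nerves (log2 fold change -0.07 ± 0.21 (SE), edgeR adjusted p = 0.907). Contralateral Vegfa was at 6.73, 6.69 and 10.2 CPM in control nerves, against 7.04, 5.42, 15.5 and 7.34 CPM in RaptorKO nerves (log2 fold change 0.18 ± 0.35 (SE), edgeR adjusted p = 0.8), and its highest value again came from RaptorKO contralateral 3. Kdr, the principal signalling receptor for Vegfa (VEGFR2), was at 14.8, 12.7 and 19.0 CPM in control injured nerves and 26.4, 24.3 and 25.3 CPM in RaptorKO injured nerves, so that every RaptorKO value lay above every control value (log2 fold change 0.72 ± 0.18 (SE), edgeR adjusted p = 0.028). Contralateral Kdr was higher than any injured value and alike in both genotypes, at 46.9, 45.8 and 49.1 CPM in control nerves, against 45.0, 45.0, 48.9 and 46.3 CPM in RaptorKO nerves (log2 fold change -0.01 ± 0.09 (SE), edgeR adjusted p = 0.961). Flt1 (VEGFR1), which binds Vegfa and limits its action on Kdr, was at 23.9, 25.8 and 47.8 CPM in control injured nerves and 45.2, 49.8 and 40.7 CPM in RaptorKO injured nerves; control injured 3 lay within the RaptorKO range, and the difference was not called (log2 fold change 0.49, edgeR adjusted p = 0.25). Contralateral Flt1 was at 53.8, 68.4 and 63.1 CPM in control nerves, against 55.0, 52.0, 62.2 and 64.7 CPM in RaptorKO nerves. Vegfc, the ligand of Flt4 with a role in lymphatic growth, was, in contralateral nerves, at 8.01, 7.42 and 7.22 CPM in control nerves, against 2.24, 4.05, 4.67 and 3.87 CPM in RaptorKO nerves, with all RaptorKO values below all control values (log2 fold change -1.001 ± 0.28 (SE), edgeR adjusted p = 0.0449). That call was lost without any one of control contralateral 1, 2, or 3 or RaptorKO contralateral 1, 2, or 4 (highest adjusted p = 0.143 over all alternatives). In injured nerves Vegfc stood at 1.005, 1.01 and 2.74 CPM in control injured nerves and 1.95, 4.09 and 1.74 CPM in RaptorKO injured nerves and did not pass the count filter. Flt4 (VEGFR3), also untested there, ranged over 2.29 to 3.33 CPM in control injured and 3.64 to 6.68 CPM in RaptorKO injured nerves. Contralateral Flt4 ranged over 5.27 to 10.6 CPM in control and 6.72 to 8.96 CPM in RaptorKO contralateral nerves.

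Angiopoietins and Tie receptors. Tek, Tie1, and Ptprb were called higher in RaptorKO injured nerves, whereas the ligand Angpt2 was not called and Angpt1 was too low to test. Tek, the receptor TIE2 for both angiopoietins, was at 24.0, 29.6 and 32.5 CPM in control injured nerves and 41.0, 64.8 and 50.8 CPM in RaptorKO injured nerves (log2 fold change 0.88 ± 0.18 (SE), edgeR adjusted p = 0.0136). Contralateral Tek was at 31.3, 32.5 and 38.4 CPM in control nerves, against 35.3, 34.9, 32.7 and 31.8 CPM in RaptorKO nerves, with the genotypes interleaved (log2 fold change 0.00 ± 0.11 (SE), edgeR adjusted p = 0.992). Tie1, the co-receptor of Tek, was at 17.7, 25.0 and 33.6 CPM in control injured nerves and 44.3, 67.0 and 36.7 CPM in RaptorKO injured nerves (log2 fold change 0.97, edgeR adjusted p = 0.0376). Contralateral Tie1 was at 25.7, 28.6 and 26.5 CPM in control nerves, against 23.8, 26.5, 29.2 and 25.8 CPM in RaptorKO nerves. Ptprb, the endothelial phosphatase VE-PTP that dampens Tek signalling, was at 47.9, 71.4 and 70.3 CPM in control injured nerves and 122, 166 and 120.4 CPM in RaptorKO injured nerves, a clear gap between the groups (log2 fold change 1.12 ± 0.18 (SE), edgeR adjusted p = 0.00357). Contralateral Ptprb was at 93.2, 103 and 128 CPM in control nerves, against 97.1, 108, 122 and 116 CPM in RaptorKO nerves and did not separate the genotypes (log2 fold change 0.05 ± 0.12 (SE), edgeR adjusted p = 0.837). Angpt1, the Tek agonist made by perivascular cells, was low everywhere, at 3.01, 2.94 and 2.74 CPM in control injured nerves and 2.49, 3.54 and 2.84 CPM in RaptorKO injured nerves and, in contralateral nerves, at 2.64, 3.51 and 2.148 CPM in control nerves, against 4.16, 4.81, 2.95 and 2.06 CPM in RaptorKO nerves. Angpt2, the ligand released by endothelium that can oppose Angpt1, was at 3.56, 8.62 and 8.12 CPM in control injured nerves and 5.95, 13.5 and 6.04 CPM in RaptorKO injured nerves, with overlap (log2 fold change 0.35, edgeR adjusted p = 0.699). Contralateral Angpt2 was at 59.7, 64.8 and 47.9 CPM in control nerves, against 36.2, 63.5, 29.9 and 37.4 CPM in RaptorKO nerves, where 3 of the 4 RaptorKO values lay below the controls (log2 fold change -0.44, edgeR adjusted p = 0.269, not called).

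Transcription factors. Klf4, Klf2, and Sox17 were called higher in RaptorKO injured nerves, and Erg, Fli1, and Sox18 were not called. Klf4, a zinc finger factor that maintains endothelial quiescence under flow and is also expressed in other cell types, showed the highest fold change of the list, at 17.7, 14.5 and 11.7 CPM in control injured nerves and 47.0, 44.7 and 50.4 CPM in RaptorKO injured nerves (log2 fold change 1.71 ± 0.16 (SE), edgeR adjusted p = 1.93e-04). The RaptorKO values were close to one another and lay far above every control value. Contralateral Klf4 was at 13.8, 15.4 and 18.7 CPM in control nerves, against 21.9, 19.2, 22.7 and 14.8 CPM in RaptorKO nerves (log2 fold change 0.32 ± 0.17 (SE), edgeR adjusted p = 0.282). Klf2, its relative induced by shear stress, was at 13.6, 12.7 and 15.5 CPM in control injured nerves and 31.4, 29.5 and 18.8 CPM in RaptorKO injured nerves (log2 fold change 0.95 ± 0.21 (SE), edgeR adjusted p = 0.0165). RaptorKO injured 3 was the lowest RaptorKO value for Klf2 and lay close to control injured 3. Contralateral Klf2 was at 32.9, 29.2 and 37.7 CPM in control nerves, against 35.5, 28.3, 27.1 and 25.1 CPM in RaptorKO nerves (log2 fold change -0.18 ± 0.14 (SE), edgeR adjusted p = 0.488). Sox17, an arterial endothelial factor, was at 7.67, 11.4 and 12.9 CPM in control injured nerves and 19.7, 29.6 and 15.6 CPM in RaptorKO injured nerves (log2 fold change 1.04, edgeR adjusted p = 0.0342). Contralateral Sox17 was at 22.7, 21.0 and 21.3 CPM in control nerves, against 19.6, 23.4, 21.3 and 28.2 CPM in RaptorKO nerves. Fli1, an ETS factor of endothelium and blood cells, was at 31.2, 25.4 and 29.0 CPM in control injured nerves and 29.8, 34.3 and 34.6 CPM in RaptorKO injured nerves, with overlap (log2 fold change 0.22, edgeR adjusted p = 0.413). Contralateral Fli1 was lower in every library, at 13.1, 19.7 and 14.7 CPM in control nerves, against 16.2, 18.5, 16.1 and 18.9 CPM in RaptorKO nerves. Erg, the ETS factor most restricted to endothelium, ranged over 11.1 to 19.6 CPM in control injured and 15.6 to 27.3 CPM in RaptorKO injured nerves (log2 fold change 0.50 ± 0.28 (SE), edgeR adjusted p = 0.344). Sox18, which acts in vessel and lymphatic development, ranged over 6.76 to 14.1 and 7.68 to 22.3 CPM (log2 fold change 0.40 ± 0.37 (SE)), and the groups overlapped. Between contralateral nerves Erg ranged over 16.3 to 20.4 CPM in controls and 15.8 to 21.9 CPM in RaptorKOs, and Sox18 over 9.37 to 11.3 and 8.63 to 13.1 CPM.

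Tip cell, apelin, and Notch ligand genes. Only the apelin receptor was called among these 4 genes, in injured nerves. Aplnr, which marks venous and sprouting endothelium, was at 15.8, 20.4 and 25.5 CPM in control injured nerves and 31.6, 33.9 and 39.1 CPM in RaptorKO injured nerves (log2 fold change 0.77 ± 0.18 (SE), edgeR adjusted p = 0.0248). The 2 groups were separated by a gap, with control injured 1 the lowest. Contralateral Aplnr was at 2.18, 1.06 and 5.17 CPM in control nerves, against 2.99, 1.68, 3.81 and 1.93 CPM in RaptorKO nerves, too few counts to test. Apln, its ligand and a product of tip cells, was at 1.83, 1.56 and 4.41 CPM in control injured nerves and 1.87, 2.201 and 2.01 CPM in RaptorKO injured nerves. The highest Apln value came from a control nerve, and contralateral Apln was at 1.09, 2.45 and 0.0976 CPM in control nerves, against 1.17, 1.30, 0.953 and 0.515 CPM in RaptorKO nerves. Dll4, the Notch ligand of tip cells and arteries, ranged over 2.28 to 5.87 CPM in control injured and 4.12 to 12.9 CPM in RaptorKO injured nerves, the latter range set by RaptorKO injured 2 (log2 fold change 0.92 ± 0.47 (SE), not called). Uninjured levels of Dll4 were 8.79 to 10.6 CPM in controls and 6.70 to 11.6 CPM in RaptorKOs. Esm1, a secreted tip cell product, stayed between 0 and 2.03 CPM in all 13 libraries.

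Capillary and luminal surface genes. Of these 6 genes, the 5 that could be tested in injured nerves were all called higher in RaptorKOs, and Cd34 was also called in contralateral nerves. Cd34, a sialomucin of capillary endothelium that endoneurial fibroblasts also carry, was at 138, 111 and 117 CPM in control injured nerves and 192, 167 and 206 CPM in RaptorKO injured nerves (log2 fold change 0.64 ± 0.12 (SE), edgeR adjusted p = 0.00782). Contralateral Cd34 was at 99.6, 104 and 109 CPM in control nerves, against 188, 168, 182 and 173 CPM in RaptorKO nerves, which gave the smallest adjusted p of any member between contralateral nerves (log2 fold change 0.79 ± 0.07 (SE), edgeR adjusted p = 1.21e-04). The call held under all alternatives tried, and the fibroblast and perineurial marker sum was also higher there, at 7118 to 10253 CPM in RaptorKOs against 5105 to 5690 CPM in controls; its part in the Cd34 difference was not tested. Ly6c1, a surface protein of capillary endothelium, was at 35.9, 40.8 and 38.7 CPM in control injured nerves and 65.8, 115 and 61.2 CPM in RaptorKO injured nerves (log2 fold change 1.09 ± 0.21 (SE), edgeR adjusted p = 0.0104). Contralateral Ly6c1 was at 121, 139 and 104 CPM in control nerves, against 125, 114, 126 and 128 CPM in RaptorKO nerves. Ly6c1 has a near-identical neighbour, Ly6c2, which monocytes express, and the estimated counts may not split the pair reliably. Emcn, a sialomucin of capillary and venous endothelium, was at 26.9, 25.4 and 35.9 CPM in control injured nerves and 42.4, 67.5 and 54.0 CPM in RaptorKO injured nerves (log2 fold change 0.91, edgeR adjusted p = 0.0143). Contralateral Emcn was at 48.3, 50.6 and 63.2 CPM in control nerves, against 61.5, 43.8, 51.7 and 58.8 CPM in RaptorKO nerves. Plvap, which forms the diaphragms of fenestrated and leaky vessels, was at 22.01, 19.4 and 29.8 CPM in control injured nerves and 40.6, 44.6 and 30.4 CPM in RaptorKO injured nerves (log2 fold change 0.72, edgeR adjusted p = 0.0435). RaptorKO injured 3 was only just above control injured 3. Contralateral Plvap scattered widely, at 4.28, 1.88 and 13.2 CPM in control nerves, against 9.18, 2.52, 26.0 and 0.773 CPM in RaptorKO nerves, and its highest value in each genotype came from the library with the most adipocyte marker counts. Podxl, a charged sialomucin of the luminal surface, was at 84.3, 95.0 and 110.4 CPM in control injured nerves and 124, 155 and 124 CPM in RaptorKO injured nerves, the smallest of the called differences (log2 fold change 0.49, edgeR adjusted p = 0.0461). Contralateral Podxl was at 92.2, 98.1 and 101 CPM in control nerves, against 100.5, 87.3, 118 and 95.7 CPM in RaptorKO nerves. Gpihbp1, the capillary anchor of lipoprotein lipase, was at 0.731, 1.47 and 2.55 CPM in control injured nerves and 1.60, 1.57 and 1.46 CPM in RaptorKO injured nerves, too low to test, and in contralateral nerves at 3.55, 7.01 and 4.59 CPM in control nerves, against 6.61, 6.72, 9.72 and 8.50 CPM in RaptorKO nerves (log2 fold change 0.65, edgeR adjusted p = 0.181, not called).

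Vascular signalling and secreted genes. Vwf and S1pr1 were called higher in RaptorKO injured nerves, 5 of the other 6 genes had a positive log2 fold change without a call, and Tspan18 was called lower in RaptorKO contralateral nerves. Vwf, the von Willebrand factor stored in endothelial Weibel-Palade bodies and in platelets, was at 115, 145 and 152 CPM in control injured nerves and 269, 366 and 254 CPM in RaptorKO injured nerves (log2 fold change 1.13 ± 0.16 (SE), edgeR adjusted p = 0.00218). Its lowest RaptorKO value, in RaptorKO injured 3, was well above its highest control value. Contralateral Vwf was at 242, 225 and 207 CPM in control nerves, against 199.5, 249, 229.8 and 231 CPM in RaptorKO nerves, with the genotypes interleaved (log2 fold change 0.04 ± 0.09 (SE), edgeR adjusted p = 0.854). S1pr1, a sphingosine-1-phosphate receptor that stabilises endothelial junctions, was at 56.4, 60.3 and 76.1 CPM in control injured nerves and 84.2, 133 and 99.6 CPM in RaptorKO injured nerves (log2 fold change 0.73, edgeR adjusted p = 0.0253). The lowest RaptorKO value was near the highest control value. Contralateral S1pr1 was at 53.1, 57.7 and 75.8 CPM in control nerves, against 52.2, 66.7, 57.0 and 66.9 CPM in RaptorKO nerves. Tspan18, a tetraspanin of endothelium, was, in contralateral nerves, at 36.3, 33.7 and 27.6 CPM in control nerves, against 17.5, 22.4, 17.9 and 23.8 CPM in RaptorKO nerves, all RaptorKO values below all control values (log2 fold change -0.65 ± 0.15 (SE), edgeR adjusted p = 0.023). That call was lost without control contralateral 1 or 2 or RaptorKO contralateral 1 (highest adjusted p = 0.103). Injured Tspan18 was at 8.22, 9.63 and 8.61 CPM in control injured nerves and 8.35, 7.94 and 5.94 CPM in RaptorKO injured nerves and overlapped. Eng, a TGF-beta co-receptor, and Mmrn2, a matrix protein of vessels that binds Vegfa, did not overlap between injured groups but missed the threshold (edgeR adjusted p = 0.0585 and 0.0604). Eng ranged over 55.4 to 66.6 CPM in control injured and 71.5 to 102 CPM in RaptorKO injured nerves, and Mmrn2 over 19.3 to 33.2 and 35.5 to 69.5 CPM. Egfl7, a secreted guide of vessel tubes, Nos3, the endothelial nitric oxide synthase, and Rasip1, which supports lumen formation, had log2 fold changes of 0.57, 0.62, and 0.60 with overlapping libraries. In contralateral nerves of controls and RaptorKOs, Eng ranged over 49.0 to 52.7 and 57.4 to 68.2 CPM, without overlap but not called (edgeR adjusted p = 0.0655). Mmrn2 ranged there over 33.8 to 35.6 and 27.2 to 37.1 CPM, Egfl7 over 52.9 to 70.3 and 47.7 to 58.5 CPM, Nos3 over 3.82 to 9.05 and 3.74 to 10.01 CPM, and Rasip1 over 10.7 to 18.6 and 10.7 to 15.6 CPM, and none of these was called. Exons of Eng, Egfl7, Nos3, and Rasip1 overlap those of Fpgs, Agpat2, Atg9b, and Izumo1, and those of Ecscr, Angpt1, Sox17, Dll4, and Cd34 overlap further annotated genes on the opposite strand; whether counting used strand is not stated.

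Whether the genotype effect itself depended on injury was tested as an interaction over all 13 libraries. Of 37 members tested, 7 were called, all with a more positive genotype effect in injured than in contralateral nerves, whereas 1.07% of all 12851 genes tested were called in that direction and 1.41% in the other. These were Vwf (log2 difference 1.09 ± 0.19 (SE), edgeR adjusted p = 0.00862), Klf4 (1.39 ± 0.25 (SE), adjusted p = 0.00868), Ptprb (1.07 ± 0.23 (SE), adjusted p = 0.0234), Klf2 (1.13 ± 0.26 (SE), adjusted p = 0.034), Kdr (0.74 ± 0.17 (SE), adjusted p = 0.0388), Ly6c1 (1.05 ± 0.25 (SE), adjusted p = 0.0415), and Tek (0.88 ± 0.22 (SE), adjusted p = 0.0456). They lie on different chromosomes apart from Klf4 and Tek, which are both on chromosome 4 (GRCm38, Klf4 at 55527143 to 55532466 and Tek at 94739289 to 94874976). In all, 34 of the 37 tested members had a positive interaction, against 48.7% of all genes tested. An unadjusted p below 0.05 was reached by 20 members, and its share over all genes is not given here. Cd34, called between the genotypes on both sides, had a log2 difference of -0.15 ± 0.14 (SE), and Vegfa and Gpihbp1 were the other tested members below 0. Vwf was called under all alternatives. Klf4 lost its call only without both libraries of control 3. The others were less stable: of 22 alternatives, Ptprb was called in 17, Klf2, Kdr, and Ly6c1 in 10 each, and Tek in 7, and Ly6c1 was lost with the replicate number as a block (edgeR adjusted p = 0.0521). The count was 3 without control injured 1 or control injured 2, 9 without control injured 3, 4 without RaptorKO injured 2, 2 to 3 without a control contralateral nerve, 3 to 4 without a RaptorKO contralateral nerve, 2 without both libraries of control 3, and 14 with DESeq2.

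**Figure D2:**
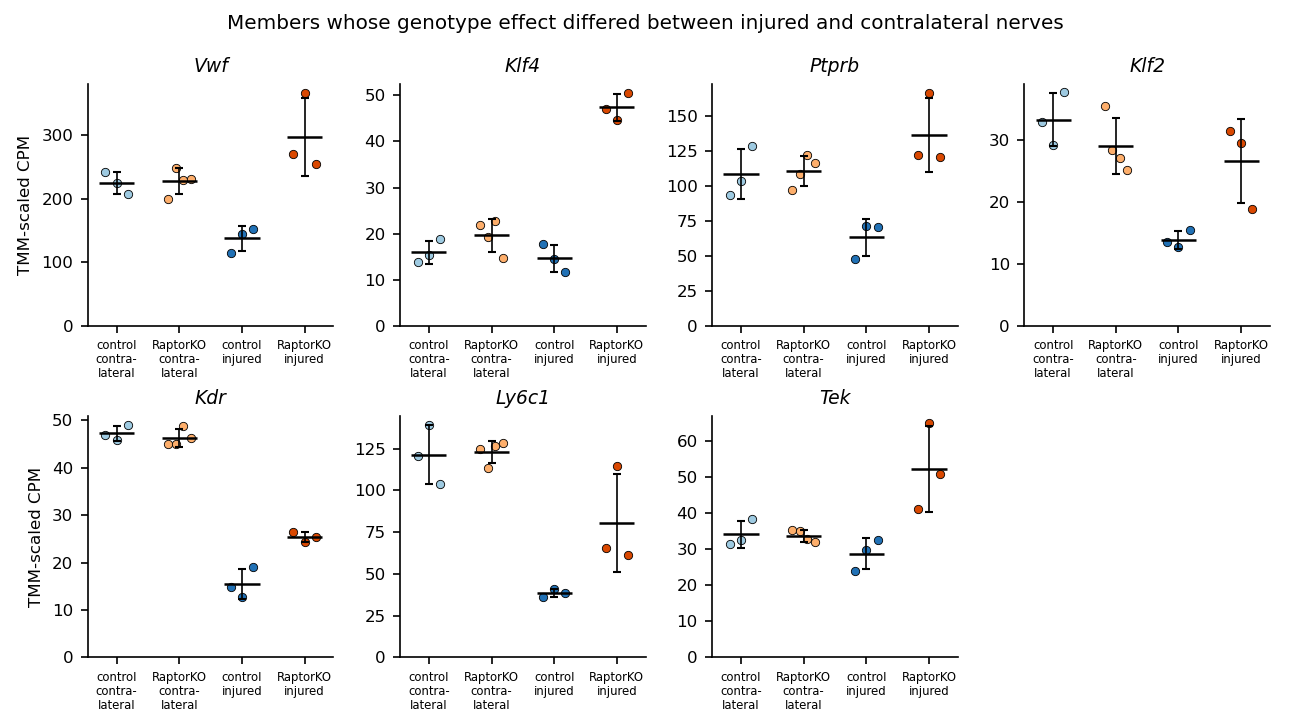
TMM-scaled CPM (y axis) in each of the 13 libraries (points) by group (x axis) for the 7 members called in the interaction, with mean (bar) and SD (whisker). Contralateral groups overlap in every panel, and the RaptorKO injured points lie above all control injured points, for Klf4 at 44.7 to 50.4 against 11.7 to 17.7 CPM.

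In controls, injury lowered more members than it raised. Of 36 members tested in control nerves, 18 were lower and 4 higher in injured than in contralateral nerves, set against 32.9% of all 12430 genes called lower and 32.4% higher. In RaptorKO nerves 8 of 37 tested members were lower and 15 higher, with 28.5% of 12515 genes called lower and 30.5% higher. The median log2 fold change of the members was -0.46 in controls and 0.27 in RaptorKOs, against 0.00 and 0.03 over all genes. Scaling by library totals alone moved the median of all genes to 0.20 in controls and to 0.19 in RaptorKOs and that of the members to -0.26 and 0.42, and the calls were then 16 lower and 6 higher in controls and 5 lower and 17 higher in RaptorKOs. In RaptorKOs 5 members were called lower without RaptorKO injured 1 or without RaptorKO injured 3. Without RaptorKO injured 2, 11 were called lower and 10 higher. The excess of higher over lower calls in RaptorKOs thus rested on RaptorKO injured 2. Each injury effect used the libraries of its own genotype, and the same injured libraries entered the genotype effect described above.

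Set side by side, 7 members were called lower in both genotypes (Cldn5, Ecscr, Kdr, Flt1, Angpt2, Ly6c1, and Tspan18) and 4 higher in both (Fli1, Aplnr, Plvap, and Eng). For these and the other pairs of calls below, the share over all genes is not given here. Several of the calls on these members were near the threshold. Eng in controls was called in 7 of 17 alternatives (highest adjusted p = 0.127) and did not pass by DESeq2, in the fit of all 13 libraries, under a block for the replicate number (edgeR adjusted p = 0.057), or without any one of control injured 2 or 3 or control contralateral 1, 2, or 3. In RaptorKOs, Cldn5 was called in 11 of 17 alternatives and was lost without RaptorKO injured 1 or 3 or RaptorKO contralateral 2 or 4. Flt1 in RaptorKOs was also called in 11 of 17, and was lost with the block (edgeR adjusted p = 0.0622) and without RaptorKO injured 1 or 3. Ly6c1 in RaptorKOs was called in 13 of 17, and was lost without the same injured libraries. All 3 were lost under library totals alone. A further 10 were called lower in controls and not called in RaptorKOs, among them Cdh5, Ptprb, Klf2, Sox17, and Emcn, and 10 were not called in controls and called higher in RaptorKOs, among them Pecam1, Tek, Tie1, Klf4, and S1pr1. Whether such members differed is given by the interaction alone, which called Ptprb, Klf2, Tek, and Klf4 of those just named. Vwf was called lower in controls (log2 fold change -0.73 ± 0.12 (SE), edgeR adjusted p = 1.68e-04) and higher in RaptorKOs (0.38 ± 0.13 (SE), adjusted p = 0.0316), although the rise was lost without RaptorKO injured 2 or any one of RaptorKO contralateral 1, 3, and 4. The steepest falls in controls were those of Angpt2 (log2 fold change -3.11 ± 0.26 (SE)), Ecscr (-2.89 ± 0.12 (SE)), and Vegfc (-2.28 ± 0.40 (SE)), with adjusted p from 1.22e-09 to 3.29e-04. In RaptorKOs the steepest falls were those of Gpihbp1 (-2.35 ± 0.30 (SE)), Angpt2 (-2.29 ± 0.35 (SE)), and Ecscr (-2.05 ± 0.18 (SE)). Vegfc was not called there (log2 fold change -0.51 ± 0.42 (SE), adjusted p = 0.321). Aplnr rose most in both genotypes, by 2.87 ± 0.42 (SE) in controls and 3.74 ± 0.25 (SE) in RaptorKOs on the log2 scale. Plvap followed, at 1.88 ± 0.48 (SE) and 1.98 ± 0.72 (SE), and the RaptorKO call was lost without any one of 5 of the 7 RaptorKO libraries. Fli1 was the third in controls (0.82 ± 0.17 (SE)) and Klf4 the third in RaptorKOs (1.26 ± 0.15 (SE)). Of the 20 members higher in RaptorKO than in control injured nerves, 16 had a control injured mean below the control contralateral mean, and 16 a RaptorKO injured mean above it. These 20 were picked by their injured values, which favours both counts, and the share over all genes is not given here.

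**Figure D3:**
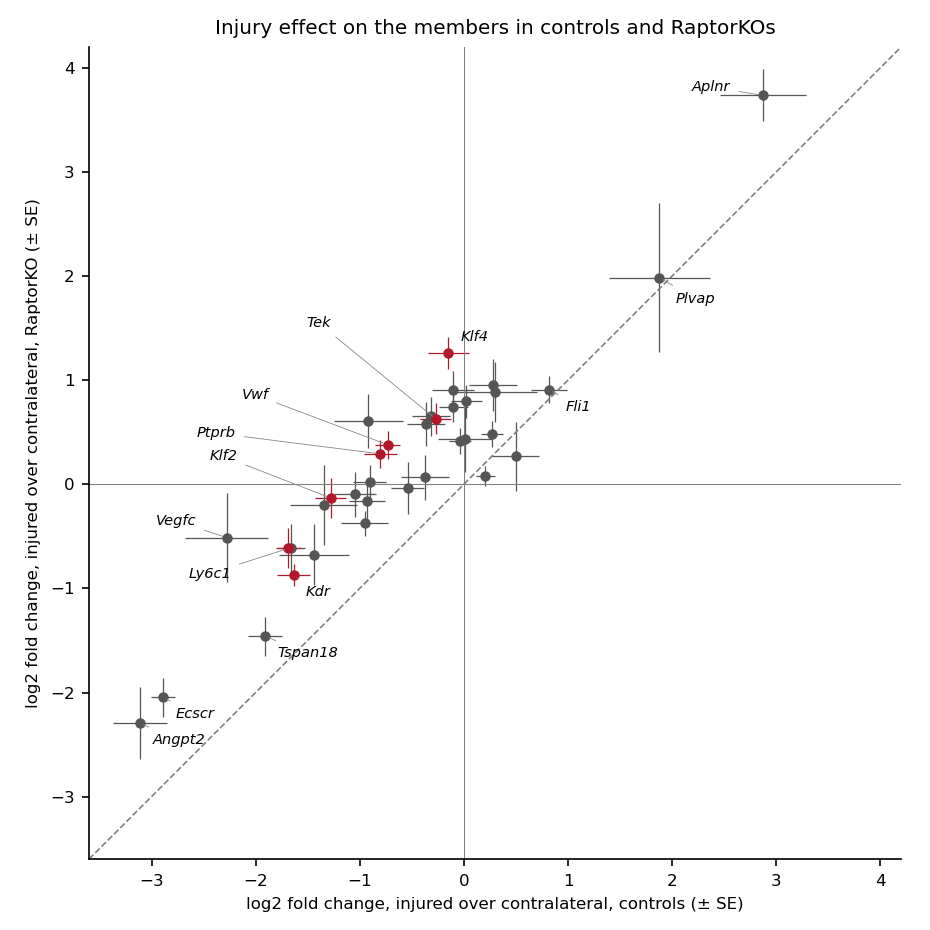
Log2 fold change of injured over contralateral nerves in controls (x axis) and RaptorKOs (y axis), with SE, for the 36 members tested in both; red points were called in the interaction and the dashed line marks equal change. Most points lie above the line, Angpt2 and Ecscr fell in both genotypes, and Aplnr and Plvap rose in both.

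**Figure D4:**
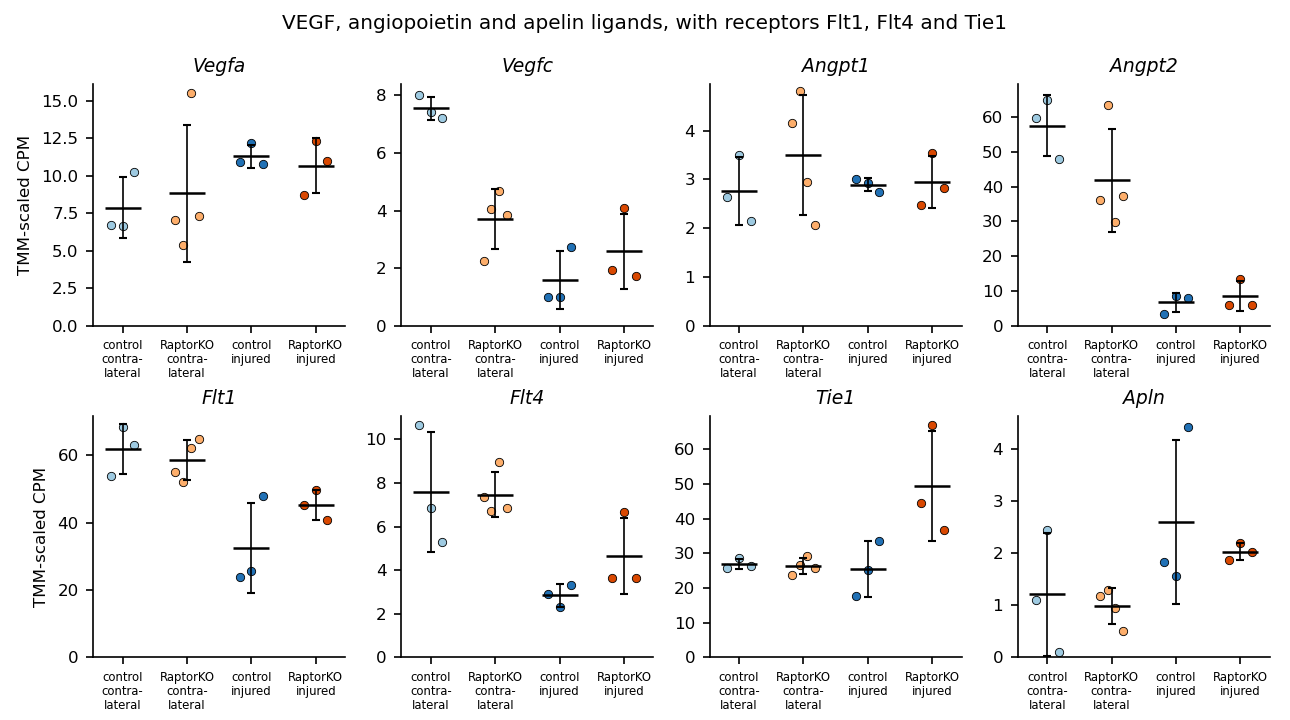
TMM-scaled CPM (y axis) in each library (points) by group (x axis) for VEGF, angiopoietin, and apelin ligands and the receptors Flt1, Flt4, and Tie1, with mean (bar) and SD (whisker). Vegfc is below control contralateral levels in the other groups, Angpt2 falls from 29.9 to 64.8 CPM in contralateral nerves to 3.56 to 13.5 CPM in injured nerves, and Vegfa and Angpt1 overlap between the genotypes.

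Levels were compared between members only after division by exon length, as mean CPM per kilobase. In control contralateral nerves the highest were Ecscr (86.2), Ly6c1 (72.4), and Cldn5 (56.9), followed by Cdh5 (25.5) and S1pr1 (20.4), and the lowest were Apln (0.385), Esm1 (0.518), and Angpt1 (0.531). In control injured nerves Ly6c1 (22.9), S1pr1 (21.1), Cldn5 (18.4), and Cdh5 (17.9) were the highest and close to one another, and Ecscr was at 11.8. RaptorKO injured nerves had 48.0 for Ly6c1, 38.7 for Cldn5, 34.7 for S1pr1, and 30.3 for Cdh5. Among the receptors, Tek stood at 7.23 CPM per kilobase in control contralateral, 6.09 in control injured, and 11.1 in RaptorKO injured nerves, whereas Kdr stood at 5.23, 1.71, and 2.81. The ligand Vegfa was at 1.84, 2.64, and 2.49 in the same order.

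Further genes of vessels were taken from lists outside the members. Of all genes tested, 4.09% were called higher and 4.44% lower between injured nerves, and 4.49% and 5.68% between contralateral nerves. Lists with 1 call in a direction are too short to be told apart from these shares. Among 18 tested angiogenic ligands and receptors, 6 were higher and 1 was lower in RaptorKO injured nerves. Ednrb, an endothelin receptor that SCs and their precursors also express, was the lower one (log2 fold change -1.64 ± 0.16 (SE), edgeR adjusted p = 3.43e-04). Ramp2, the adrenomedullin co-receptor, was higher (1.03 ± 0.18 (SE), adjusted p = 0.00536), as was Edn1, the endothelial peptide endothelin (1.39 ± 0.32 (SE), adjusted p = 0.0212). Of 9 Notch pathway genes, the ligand Jag2 and the mural cell target Heyl were higher. Of 15 other endothelial transcription factors, Epas1 was higher (log2 fold change 0.80) and the venous factor Nr2f2 lower (-0.55). Among 10 blood-nerve barrier genes, 4 were higher and 0 lower, led by the glucose transporter Slc2a1 (0.62), which perineurium also carries, the efflux pump Abcb1a (0.79), and caveolin Cav1 (0.54). Of 10 angiogenesis inhibitors, Serpinf1 was higher (0.54) and Vash1 (-1.03) and Col18a1 (-0.62), the precursor of endostatin, were lower. Jam2 was higher (0.71) and Jam3 lower (-0.62) among 8 genes of leukocyte adhesion. Of 9 targets of the hypoxia factor HIF, none was higher and Pgk1 was lower (-0.42). Several of these counts rested on single libraries. The 6 higher ligands and receptors became 1 without control injured 2, 2 without control injured 1, and 3 without control injured 3, RaptorKO injured 1, or RaptorKO injured 2. The 4 barrier genes became 1 without control injured 2 and 2 without control injured 1 or RaptorKO injured 3. The Notch count became 0 without RaptorKO injured 1 and 1 without control injured 1 or RaptorKO injured 3. The count of higher transcription factors was 0 without control injured 1 or 2. Among the inhibitors, the count lower was 1 without control injured 2 and 4 without RaptorKO injured 2, and the count higher was 0 without control injured 2 or RaptorKO injured 1 and 2 without control injured 1 or RaptorKO injured 2. Of the adhesion genes, 0 were lower without control injured 2 and 2 higher without RaptorKO injured 2, and 0 HIF targets were lower without any one of control injured 1, 2, or 3 or RaptorKO injured 2 or 3. In contralateral nerves 2 of 20 angiogenic ligands and receptors (Ramp2 and Pgf) and 5 of 9 inhibitors (led by Thbs2, Dcn, and Col18a1) were higher and none of either list was lower, while 2 of 13 barrier genes (Mfsd2a and Slc7a5), 2 of 7 adhesion genes (Ackr1 and Jam3), and 1 of 10 HIF targets (Egln1) were lower. The weakest of the inhibitor calls had edgeR adjusted p = 0.0499. Dcn is also among the fibroblast and perineurial markers counted below. Counts of these lists in contralateral nerves were not rerun under the alternatives, so their dependence on single libraries was not tested.

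Markers of some other cell types moved alongside the members between injured nerves, and markers of others did not. The counts of markers called stand beside 4.09% of all genes called higher and 4.44% lower between injured nerves, and 4.49% and 5.68% between contralateral nerves. The summed level of the 40 members was 1067 to 1416 CPM in control injured and 1902 to 2603 CPM in RaptorKO injured nerves, and 1838 to 1873 and 1863 to 2030 CPM in contralateral nerves of controls and RaptorKOs. Of 12 pericyte and vascular smooth muscle markers, 9 could be tested in injured nerves and 8 were higher in RaptorKOs, led by Cspg4 (log2 fold change 1.30), Notch3 (1.30), and Rgs5 (1.08). Their sum was 530.4 to 642 CPM in control injured and 1042 to 1411 CPM in RaptorKO injured nerves, and 964 to 1051 and 914 to 1178 CPM in the contralateral groups. The 9 erythrocyte and platelet markers summed to 19.5 to 47.4 CPM in control injured and 81.5 to 91.2 CPM in RaptorKO injured nerves, with 3 of 4 tested called higher, all of them globin genes, and to 93.2 to 157 and 163 to 278 CPM in the contralateral groups. The platelet marker Gp9 was at 0 in all 13 libraries and Ppbp in 8. Pf4 averaged 14.4 CPM in control injured and 26.2 CPM in RaptorKO injured nerves, against 3.66 and 6.29 CPM in the contralateral groups. A large part of the injured sums was therefore Pf4 and not globin. Of 7 fibroblast and perineurial markers, 3 were higher in RaptorKO injured nerves, with sums of 3625 to 5414 CPM in controls and 5081 to 7763 CPM in RaptorKOs, which overlap. Slc2a1, already counted as a barrier gene, was 1 of these 3. Of 6 SC markers, 2 were lower, among them S100b, and the sums were 3402 to 4030 CPM in controls and 2440 to 2934 CPM in RaptorKOs. None of 9 macrophage markers was called between injured nerves, with sums of 2478 to 3064 and 1565 to 3293 CPM. The 6 lymphatic markers summed to 662 to 1013 CPM in control injured and 706 to 822 CPM in RaptorKO injured nerves, nearly all of it Reln, while Ccl21a was at 0 in 11 libraries, Mmrn1 in 10, and Prox1 in 4. Adipocyte markers summed to 19.6 CPM in control injured 3 and to at most 0.157 CPM in the other injured nerves, and skeletal muscle markers to at most 1.34 CPM in injured nerves, with Myh4 at 0 in 12 libraries and Ckm in 11. Between contralateral nerves, 2 of 10 tested pericyte and smooth muscle markers, 3 of 7 fibroblast and perineurial markers, 4 of 7 macrophage markers, and 2 of 6 erythrocyte and platelet markers were higher in RaptorKOs, 3 of 6 SC markers were lower, and none of the 13 endothelial markers was called. The part of these cells in the differences of the members was not tested. Among the 13 endothelial markers, Robo4 and Clec14a, which are not members, were higher in RaptorKO injured nerves (log2 fold change 0.78 and 0.84), whereas Cd93 and Adgrl4 were not called. Robo4 and Clec14a were already counted above among the angiogenic ligands and receptors called higher, so they are not further genes.

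**Figure D5:**
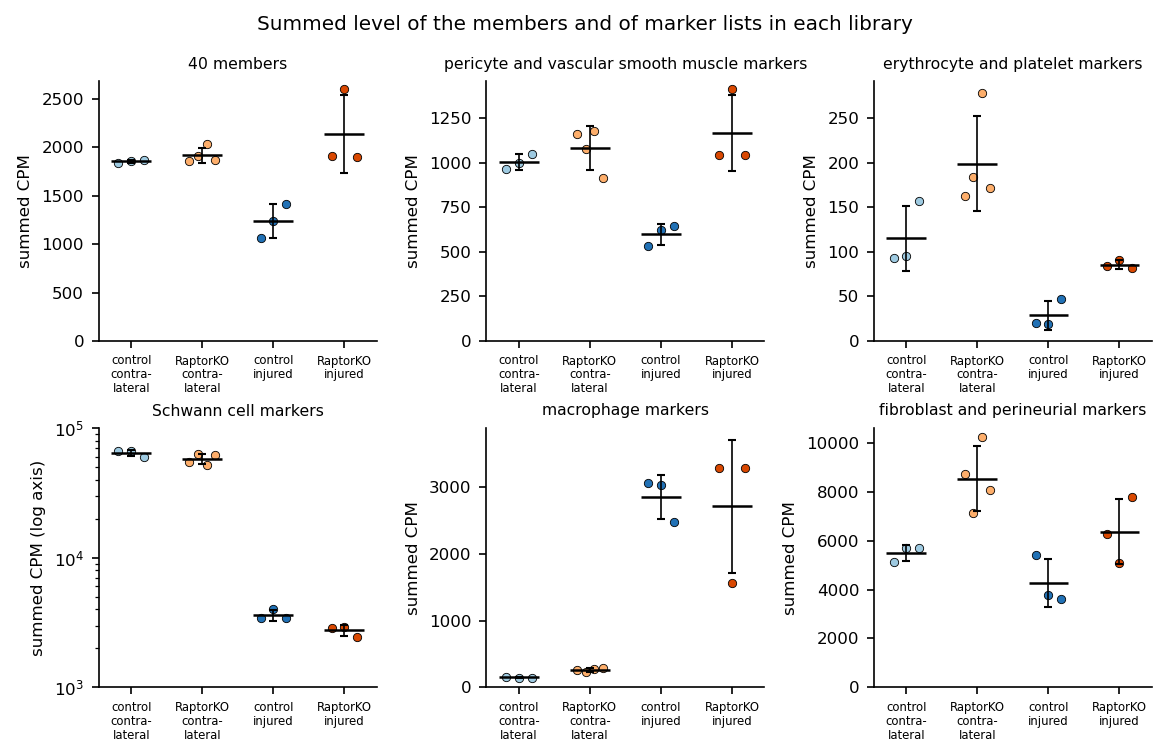
Summed TMM-scaled CPM (y axis) of the 40 members and of 5 marker lists in each library (points) by group (x axis), with mean (bar) and SD (whisker); the Schwann cell axis is logarithmic. Sums of the members, of pericyte and vascular smooth muscle markers, and of erythrocyte and platelet markers are higher in all 3 RaptorKO injured than in all 3 control injured nerves.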

How the data were processed

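RNA of 13 mouse sciatic nerves was sequenced, with 1 library per nerve. For the extraction of total RNA the labels name Trizol, whereas the methods of the paper name Qiazol. Per the labels and methods, the authors prepared TruSeq libraries, trimmed reads with Trimmomatic, and estimated expected counts per gene with RSEM 1.2.22 on GRCm38. These deposited expected counts (24.93% to 27.95% of the values per library not whole) were rounded here. Whether counting used strand is not given in the sources used here. Columns of values of no listed sample numbered 0.

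Groups came from the sample titles. Members and gene lists were chosen with earlier results of these data known. For each of 5 comparisons, genes reaching 50 counts in at least 2 of its libraries were fitted with edgeR 4.0.16 (quasi-likelihood test, TMM scaling; R 4.3.3) over all genes, and p-values were adjusted by the Benjamini-Hochberg method. Genes with adjusted p below 0.05 and a fold change above 1.2 were called. Alternatives were other tests (DESeq2 1.42.0, exact test, a replicate block, all 13 libraries in 1 fit), scalings, filters and thresholds, and leaving out libraries. Values in every library are printed for members called in a genotype comparison or the interaction, for the 3 called members that changed most in each direction in each injury comparison, and for the main ligands, receptors, and pan-endothelial markers; of other lists at most 3 called genes of smallest p per genotype comparison are named. Library totals of 8200458 to 13581775 counts set the precision of low values. Promoter windows came from RefSeq (GRCm38.p6).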

Additional observations from a re-analysis of the deposited data

Results flagged for a closer look

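Of the members, 7 were called as responding differently to injury in RaptorKO and control nerves. The test was of that difference itself, the edgeR interaction over all 13 libraries. Values are the genotype effect in injured nerves minus that in contralateral nerves on the log2 scale. All 7 were positive, whereas 1.07% of all genes tested were called in that direction. With 1 library left out the count was 2 to 9. Vwf had 1.09 (adjusted p = 0.00862). Klf4 had 1.39 (adjusted p = 0.00868) and lost its call only without both libraries of control 3 (edgeR adjusted p = 0.0566). Klf2 had 1.13 (adjusted p = 0.0340, called in 10 of 22), and this difference combined a lower level in injured than in contralateral control nerves with RaptorKO injured values of 18.8 to 31.4 CPM. Ptprb had 1.07 (adjusted p = 0.0234) and kept its call in 17 of 22 alternatives. Ly6c1 had 1.05 (adjusted p = 0.0415), with the limit that reads of its neighbour Ly6c2 may be shared and that it was called in 10 of 22 alternatives. Tek had 0.88 (adjusted p = 0.0456) and was called in 7 of 22 alternatives, not with filterByExpr or library totals alone. Kdr had 0.74 (adjusted p = 0.0388, called in 10 of 22), although its level was lower after injury in both genotypes.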

How the results depend on the processing

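No called value of a member reversed direction under the alternatives run. With adjusted p below 0.01, 4 members were higher in injured RaptorKO nerves, 0 lower in contralateral nerves, 5 lower and 9 higher after injury in RaptorKOs, and 2 called in the interaction. Library totals alone gave 1 lower in contralateral nerves and 5 lower after injury in RaptorKOs. All 13 libraries in 1 fit gave 1 lower in contralateral nerves. DESeq2 gave 2 higher there and 14 in the interaction, which was 14 with no count filter and 2 without both libraries of control replicate 3. Leaving out 1 library gave 4 to 19 higher in injured nerves, 0 to 2 lower and 1 to 1 higher in contralateral nerves, 17 to 21 lower and 3 to 4 higher after injury in controls, 5 to 11 lower and 10 to 15 higher after injury in RaptorKOs, and 2 to 9 in the interaction. Replicate numbers recur across groups. Between control sides, deviations from group means correlated at 0.067 to 0.305 for same-numbered libraries and at -0.225 to 0.136 for different numbers. These ranges were -0.024 to 0.211 and -0.298 to 0.137 between RaptorKO sides. They were -0.050 to 0.027 and -0.20 to 0.19 between injured genotypes, and 0.072 to 0.301 and -0.363 to 0.261 between contralateral genotypes. Only the libraries labelled control 3 held high Xist counts, and the paper describes a unilateral crush with the corresponding contralateral nerves. The labels do not state that a number marks 1 mouse, so the main fits took no pairs and a replicate block was an alternative. The replicate block gave 19 higher in injured nerves, 2 lower and 2 higher in contralateral nerves, 19 lower and 3 higher after injury in controls, 7 and 15 in RaptorKOs, and 8 in the interaction. Between the genotypes this block joined nerves of different mice by number alone, so it tests no pairing there. The block lost the calls of Plvap (edgeR adjusted p = 0.0936) and Podxl (0.0619) in injured nerves, Eng after injury in controls (0.057), Flt1 after injury in RaptorKOs (0.0622), and Ly6c1 in the interaction (0.0521). Over all called members and alternatives, 245 of 320 values kept their call in injured nerves, 38 of 51 in contralateral nerves, 355 of 374 and 351 of 391 after injury in controls and RaptorKOs, and 97 of 154 in the interaction. The cause was not tested. Depth limits members below a few CPM, of which 6 could not be tested between injured nerves.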
